A study of Rattus norvegicus with 4 samples.

Results

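Ptgs1 and Ptgs2 encode cyclooxygenase-1 and cyclooxygenase-2, the enzymes that turn arachidonic acid into prostaglandin H2. They were the Ensembl genes ENSRNOG00000007415 (Ptgs1) and ENSRNOG00000002525 (Ptgs2), chosen by identifier, 2 of 26313 genes listed for each sample. RNA-Seq was done on whole arteries of adult male Sprague–Dawley rats, with no treatment named. AO1 and AO2 were thoracic aortas, a conduit artery, and MA1 and MA2 were arcades of small mesenteric arteries, dissected without the superior mesenteric artery and cleaned of fat. A single rat gave both AO1 and MA1, and AO2 and MA2 were taken from a different rat each. Each tissue thus had 2 samples, and the comparison asked how the level of each cyclooxygenase mRNA and the ratio of the pair differed between a conduit and a resistance artery.

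Cyclooxygenase is the committed step of prostanoid synthesis. Prostaglandin H2 is passed to downstream synthases that make prostacyclin, a vasodilator of the endothelium, thromboxane A2, a vasoconstrictor, and the prostaglandins E2, D2 and F2α. Ptgs1 is commonly described as the constitutive gene of the pair and is the cyclooxygenase of platelets and of resting endothelium. Ptgs2 is an immediate early gene in many cell types, induced by cytokines, growth factors and mechanical stimuli, and its mRNA is short-lived.

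The promoter windows of both genes were taken from RefSeq for the rat assembly GRCr8, which was not the assembly of the alignment. They are shown as a description, and a link between them and the levels in these samples was not tested. Each window holds the 250 bases before the annotated start, on the plus strand, 5′ to 3′, and capitals mark matches to the motifs named next. The Ptgs1 window is chr3:39981169-39981418 and the Ptgs2 window is chr13:64713813-64714062.
Ptgs1: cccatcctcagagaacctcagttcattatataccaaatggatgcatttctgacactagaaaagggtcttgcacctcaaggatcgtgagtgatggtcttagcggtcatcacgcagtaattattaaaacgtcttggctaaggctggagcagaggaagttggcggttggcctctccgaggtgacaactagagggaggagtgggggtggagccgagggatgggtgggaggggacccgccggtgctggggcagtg
Ptgs2: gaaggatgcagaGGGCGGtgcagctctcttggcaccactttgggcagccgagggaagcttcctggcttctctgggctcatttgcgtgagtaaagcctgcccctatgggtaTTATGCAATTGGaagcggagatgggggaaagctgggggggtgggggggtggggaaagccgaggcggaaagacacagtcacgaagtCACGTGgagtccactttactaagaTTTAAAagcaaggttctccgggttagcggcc

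On both strands, 7 motifs were searched, each spelled out in the following sentences. The Ptgs2 window held 5 of them, once each, and the Ptgs1 window held 0. The list was set with earlier results of these data known. The shares of windows with as many or as few of the motifs were not counted, so this contrast is a description only. TTTAAA, an AT-rich variant of the TATA box, lay at positions -31 to -26 from the Ptgs2 start, and 12.3% of 33469 RefSeq promoter windows of this length held it. CACGTG, an E-box, lay at -55 to -50 and was found in 5.59% of windows. TTNNGCAAT, a form of the C/EBP site, lay at -140 to -132 and was found in 2.04% of windows. It overlapped CCAAT on the minus strand at -133 to -129, a motif held by 34.0% of windows. GGGCGG, a GC box, lay at -238 to -233 and was found in 30.5% of windows. TATAAA, the plain TATA box, had no match in either window and was found in 12.9% of all windows. The full cAMP response element TGACGTCA also had no match in either, against 1.59% of all windows. A match is a stretch of letters and was not tested as a site, and the absence of these letters from the Ptgs1 window says nothing of the factors that bind there. The GC content was 54.4% for Ptgs1 and 57.2% for Ptgs2.

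The deposited values were RPKM, reads relative to gene length in kilobases and to library size. The library sizes behind the RPKM, solved from the steps of the values, were between 83311442 reads in MA1 and 90305293 in AO1, so that 1 read on a gene of 1 kb was worth 0.0111 to 0.0120 RPKM. A solution in whole reads was found for each of the 20747 genes above 0 in at least 1 sample. In simulated data with known answers, the reads of all samples were exact for 96.1% of 18199 genes with at least 10 reads. A solution in whole reads is thus not always the true count. Median-of-ratios factors, by which the RPKM of each sample were divided before the tissues were compared, were 0.789 (AO1) and 0.897 (AO2) in the aortas and 1.22 (MA1) and 1.16 (MA2) in the mesenteric samples. The median log2 difference of MA from AO over the 7203 genes tested was -0.05 with this scaling and 0.37 with the RPKM as deposited.

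The length by which the reads had been divided was 21575 bp for Ptgs1 and 6687 bp for Ptgs2. The Ptgs1 length equals the span of Ptgs1, introns included, in the RefSeq annotation, where no other of 47357 genes has that span. The Ptgs2 length is shorter than the 8258 bp span of Ptgs2 in that annotation, and the 4 RefSeq genes that do span 6687 bp do not include it, so for Ptgs2 the name rests on the identifier alone. The study's methods name mRNA length as the divisor. Over the 18254 genes with at least 10 reads the median recovered length was 15458.5 bp, so a long divisor was not particular to Ptgs1. For Ptgs1 the deposited RPKM is, by the match to RefSeq, a level per kilobase of genomic span. This leaves comparisons of 1 gene between samples untouched, since the length cancels, but it enters each comparison between the genes.

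Ptgs1 was present in all 4 samples. Its RPKM was 0.858 (AO1) and 3.19 (AO2) in the aortas and 1.45 (MA1) and 0.617 (MA2) in the mesenteric samples. The highest and the next to lowest value were thus both from aorta, and the tissues overlapped, with MA1 between the aortas. These values rest on 1671 aortic reads in AO1 and 6016 in AO2, and on 2613 mesenteric reads in MA1 and 1184 in MA2. The 95% Poisson intervals, which cover counting error only, were 0.817 to 0.900 RPKM (AO1) and 3.11 to 3.27 RPKM (AO2), and 1.40 to 1.51 RPKM (MA1) and 0.582 to 0.653 RPKM (MA2). No pair of these intervals overlapped in the order AO2, MA1, AO1, MA2. But the intervals treat reads as independent molecules and leave out the spread between samples of a tissue, so this order was not tested. Scaling kept this order, with 1.09 (AO1) and 3.56 (AO2) scaled RPKM in aorta and 1.19 (MA1) and 0.533 (MA2) in MA.

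Ptgs2 was also present in all 4 samples. Its RPKM was 0.485 (AO1) and 1.87 (AO2) in the aortas and 1.35 (MA1) and 0.915 (MA2) in the mesenteric samples. AO2 was again the highest sample, but here AO1 was the lowest, so both mesenteric samples lay between the aortas. The reads numbered 293 (AO1) and 1091 (AO2) in aorta and 751 (MA1) and 544 (MA2) in MA. The 95% Poisson intervals were 0.431 to 0.544 RPKM (AO1) and 1.76 to 1.98 RPKM (AO2), and 1.25 to 1.45 RPKM (MA1) and 0.839 to 0.995 RPKM (MA2), again without overlap. Scaled RPKM stood in the same order, at 0.615 (AO1) and 2.08 (AO2) in aorta and 1.10 (MA1) and 0.790 (MA2) in MA.

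**Figure D1:**
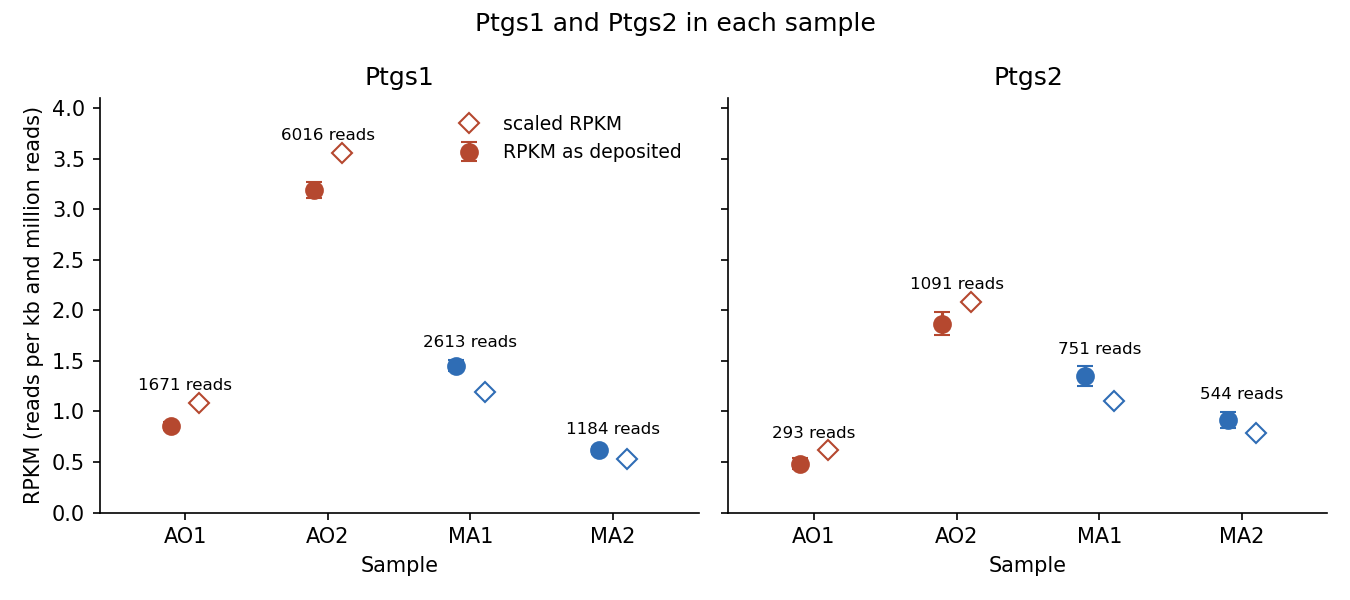
RPKM of Ptgs1 (left) and Ptgs2 (right) in each sample on a linear axis, as deposited (filled circles, bars are 95% Poisson intervals of the reads) and after median-of-ratios scaling (open diamonds), with AO in red and MA in blue and the recovered reads above. AO2 is the highest sample for both genes, at 3.19 and 1.87 RPKM as deposited, and the other 3 samples lie at or below 1.45.

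Neither gene was among the abundant mRNAs of these arteries. Ranked by RPKM, Ptgs1 lay above 65.5% (AO1) and 82.7% (AO2) of the genes detected in aorta, and above 68.4% (MA1) and 54.3% (MA2) of those detected in MA. For Ptgs2 the corresponding shares were 56.3%, 75.6%, 67.1% and 61.3%. Of all reads on genes, Ptgs1 took between 0.00169% (MA2) and 0.00801% (AO2), and Ptgs2 between 0.000382% (AO1) and 0.00145% (AO2). The ranks by RPKM use the deposited lengths, so a gene with a long span stands lower in them than it would per kilobase of mRNA.

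Within a tissue, both genes differed more between the aortas than between the mesenteric samples. AO2 was 3.72-fold above AO1 in Ptgs1 RPKM and 3.85-fold above it in Ptgs2 RPKM. After scaling the folds were 3.28 and 3.39. On the log2(scaled RPKM + 0.5) scale, which understates the change of low mRNAs, the aortas were 1.36 apart in Ptgs1 and 1.21 apart in Ptgs2. Over the 7203 genes tested the median absolute difference between the aortas was 0.20, and 2.10% of genes were at least as far apart as Ptgs1 and 2.76% at least as far apart as Ptgs2. In AO2 more than 2-fold above AO1 on this scale were 177 genes (2.46%), both cyclooxygenases among them. Both genes passed the filter for testing through AO2 and not through AO1, so these shares are not independent of the filter.

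Between the mesenteric samples, MA1 was the higher for both genes. Ptgs1 was 2.36-fold higher in MA1 than in MA2 in RPKM, and 2.24-fold higher after scaling. Ptgs2 was 1.47-fold higher in RPKM and 1.40-fold higher after scaling. On the log2(scaled RPKM + 0.5) scale these differences were 0.71 and 0.32, against a median absolute difference of 0.24 over the genes tested. Of these genes, 13.1% were at least as far apart as Ptgs1 and 38.8% at least as far apart as Ptgs2. The direction shared by the pair, higher in AO2 than in AO1 and higher in MA1 than in MA2, was found for 1613 of 7203 genes (22.4%), and 1435 (19.9%) had their highest scaled value in AO2. The genes tested were those with at least 1 RPKM in 2 or more samples, and both cyclooxygenases met this through AO2 and MA1 alone. Their shared direction, and their place among the genes in the differences within a tissue, are thus not independent of the filter. With 2 samples a tissue the spreads between samples could not be tested.

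**Figure D2:**
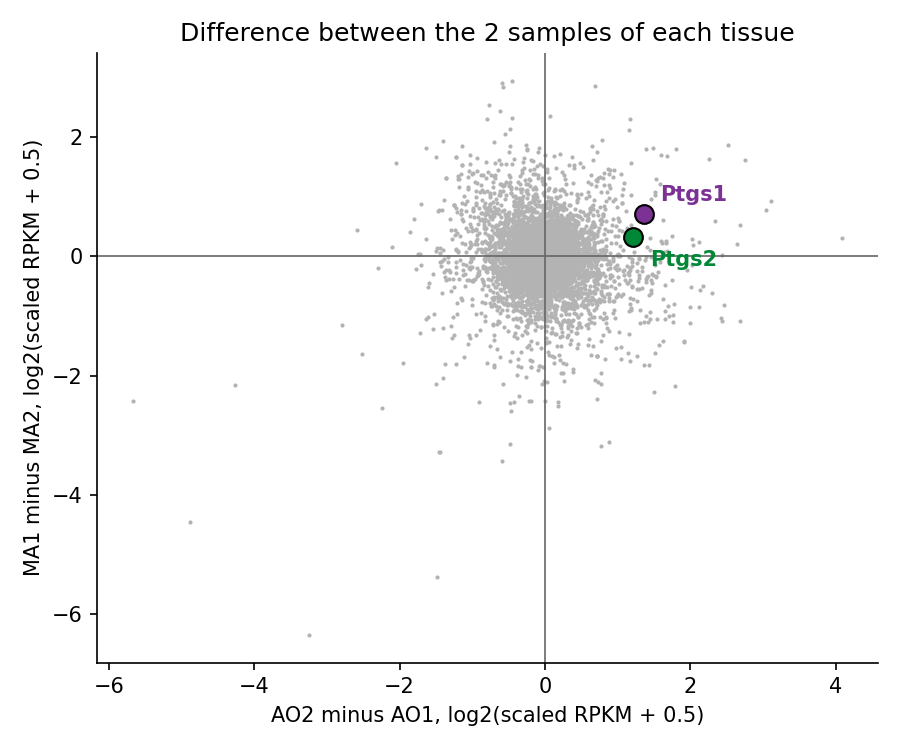
Difference between the samples of a tissue for each of 7203 genes tested (grey points), on the log2(scaled RPKM + 0.5) scale, with AO2 minus AO1 on the horizontal and MA1 minus MA2 on the vertical axis. Ptgs1 lies at 1.36 and 0.71 and Ptgs2 at 1.21 and 0.32, both to the right of most genes and above 0 on both axes. Both passed the filter for testing through AO2 and MA1 alone, so their places are not independent of it.

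Between the tissues, neither Ptgs1 nor Ptgs2 passed the test. The mean Ptgs1 RPKM was 2.02 ± 1.65 (SD, n = 2) in AO and 1.04 ± 0.59 (SD, n = 2) in MA. In limma, fitted over the 7203 genes that reached 1 RPKM in 2 or more samples, its log2 difference of MA from AO was -0.94 (standard error 0.53, 95% interval -2.38 to 0.50, adjusted p = 0.366). MA2 lay below both aortas and MA1 between them. The interval includes both no difference and a Ptgs1 mRNA more than 4-fold lower in MA.

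For Ptgs2 the means were close, with an RPKM of 1.18 ± 0.98 (SD, n = 2) in AO and 1.13 ± 0.31 (SD, n = 2) in MA. Its log2 difference of MA from AO was -0.24 in limma (standard error 0.44, 95% interval -1.43 to 0.95, adjusted p = 0.802), and it turned to 0.08 without scaling. The interval reaches to nearly 2-fold in one direction and beyond 2-fold in the other, so the data do not show that the tissues have the same level. The SD of the aortas exceeded that of the mesenteric samples for both genes.

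A gene was called at an adjusted p of at most 0.05 and more than 2-fold apart, and 0 of the 2 cyclooxygenases were called, also by limma-voom on the recovered reads, and 0 of the 2 had an unadjusted p of at most 0.05 in either fit. Over all genes tested, 555 of 7203 (7.71%) were called, 67 (0.930%) as higher in MA and 488 (6.77%) as higher in AO. The median standard error over all genes tested was 0.19, less than the standard errors of 0.53 for Ptgs1 and 0.44 for Ptgs2.

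**Figure D3:**
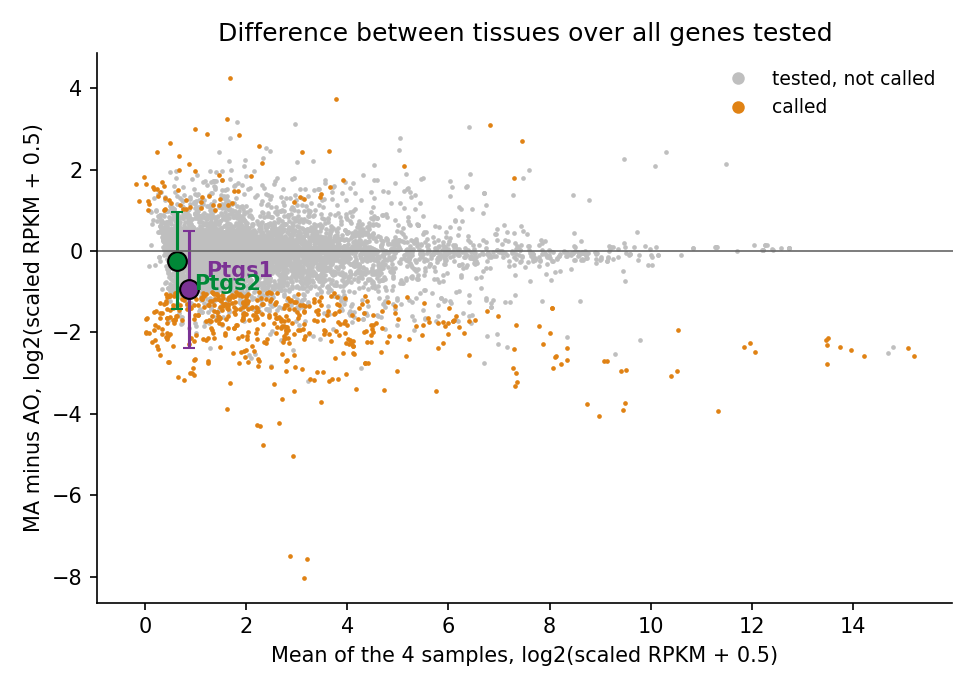
Difference of MA from AO (vertical) against the mean of the 4 samples (horizontal), both on the log2(scaled RPKM + 0.5) scale, for the genes tested (grey) and the 555 called (orange). Ptgs1 at -0.94 and Ptgs2 at -0.24 are drawn with their 95% intervals from limma, and both intervals cross 0.

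Both differences depended on which aorta was in the fit. Without AO1, the log2 difference of MA from AO was -1.62 for Ptgs1 (adjusted p = 0.185) and -0.84 for Ptgs2 (adjusted p = 0.229). Without AO2 it was -0.26 for Ptgs1 (adjusted p = 0.764) and 0.37 for Ptgs2 (adjusted p = 0.429), so the sign for Ptgs2 turned with the aorta that was kept. In these limma fits the lone aorta was assumed to vary like the mesenteric samples. Without MA1 the values were -1.30 for Ptgs1 and -0.40 for Ptgs2, and without MA2 -0.59 and -0.08. In the rat that gave both AO1 and MA1, scaled Ptgs1 was 1.10-fold and scaled Ptgs2 1.80-fold the aortic level in the mesenteric sample.

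**Figure D4:**
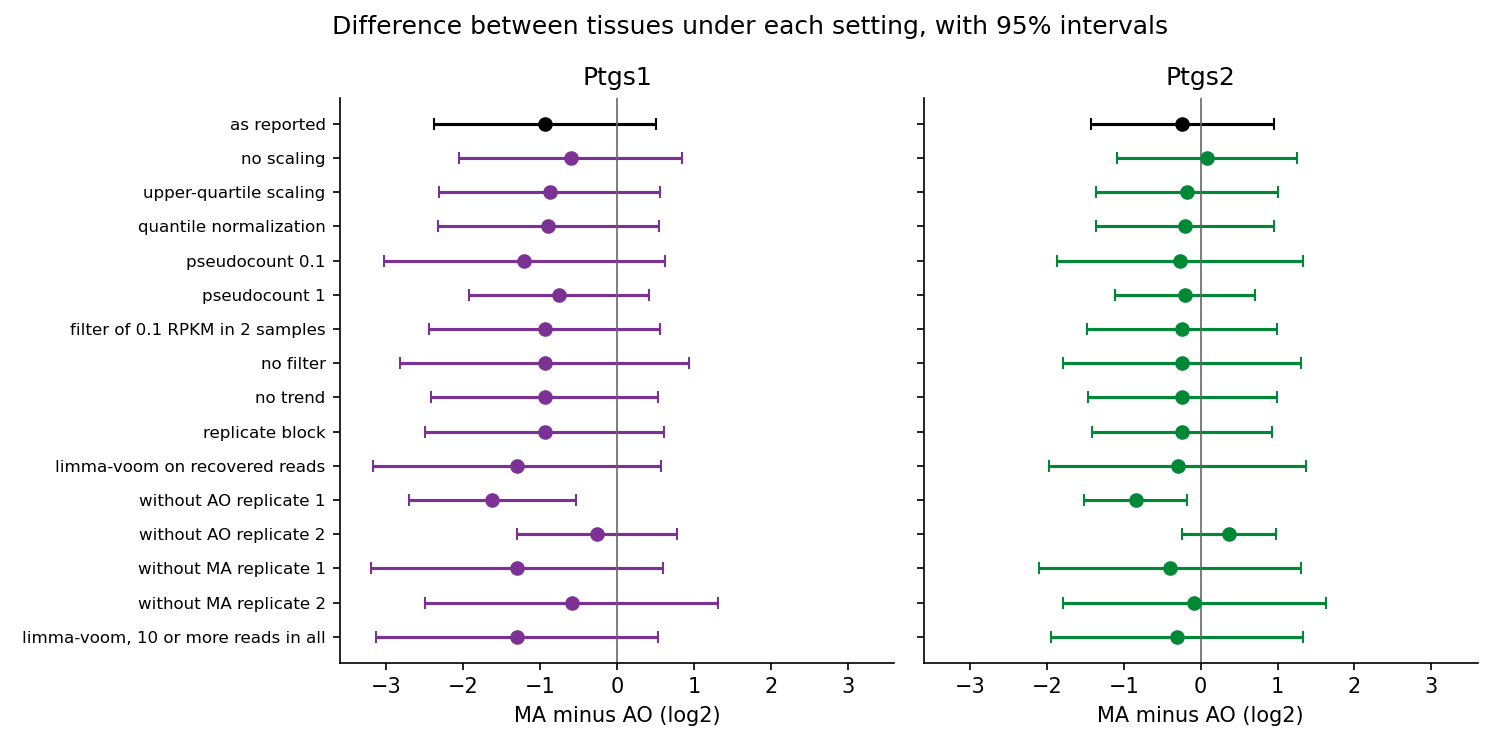
Log2 difference of MA from AO for Ptgs1 (left) and Ptgs2 (right) with 95% intervals from limma, as reported (black) and under each alternative, including each sample left out in turn. Ptgs1 stays below 0 under every setting shown, from -1.62 to -0.26, while Ptgs2 runs from -0.84 to 0.37, and the intervals that leave 0 out are those without AO replicate 1.

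The ratio of the genes within a sample needs no scaling between samples, since both mRNAs share the library. In RPKM, Ptgs1 over Ptgs2 was 1.77 (AO1) and 1.71 (AO2) in the aortas and 1.08 (MA1) and 0.675 (MA2) in the mesenteric samples. The aortas were nearly alike in this ratio, although AO2 held more than 3 times as much of each mRNA as AO1. Both mesenteric ratios lay below both aortic ratios, without overlap. The ratios of other gene pairs were not computed, so how often a pair is separated in this way is not known. The 95% Wilson intervals, for counting error only, were 1.56 to 2.00 (AO1) and 1.60 to 1.82 (AO2), and 0.994 to 1.17 (MA1) and 0.609 to 0.747 (MA2).

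The mean log2 ratio was 0.80 ± 0.03 (SD, n = 2) in AO and -0.23 ± 0.48 (SD, n = 2) in MA. The difference of MA from AO was -1.03 (standard error 0.34), a ratio 2.04-fold higher in AO. The exact permutation test gave a two-sided p of 0.333, which is the smallest that 2 samples against 2 can give in this test, so this test could not reach a p of 0.05 whatever the size of the difference. Most of the spread was in MA, where MA1 and MA2 differed. The difference was -0.69 without MA2 and -1.37 without MA1, and -1.05 without AO2. In the rat with both tissues, the ratio was 1.64-fold higher in the aorta than in the mesenteric arteries.

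Which of the genes had the higher level depended on the length used. Per kilobase of deposited length, Ptgs1 was above Ptgs2 in both aortas, the interval of MA1 included a ratio of 1, and MA2 had more Ptgs2 than Ptgs1. In reads with no length, Ptgs1 exceeded Ptgs2 in each sample, 5.70-fold (AO1) and 5.51-fold (AO2) in the aortas and 3.48-fold (MA1) and 2.18-fold (MA2) in the mesenteric samples. As a share of the reads on the pair, Ptgs1 made up 85.1% (AO1) and 84.6% (AO2) in aorta and 77.7% (MA1) and 68.5% (MA2) in MA. The 95% Wilson intervals of the aortic shares overlapped, at 83.4% to 86.6% and 83.8% to 85.5%, and those of MA1 (76.2% to 79.1%) and MA2 (66.3% to 70.7%) lay apart from them and from each other.

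The deposited lengths have a ratio of 3.23, Ptgs1 over Ptgs2. Ptgs1 is the higher gene in all 4 samples for any length ratio under 2.18. As background, the mature Ptgs2 mRNA is longer than that of Ptgs1, mainly through its 3′ untranslated region, which is a length ratio under 1. Lengths of the mRNAs were not used here, so no ratio per kilobase of mRNA is given. The difference of the log2 ratio between the tissues, -1.03, is the same with and without a length, since a constant length cancels.

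**Figure D5:**
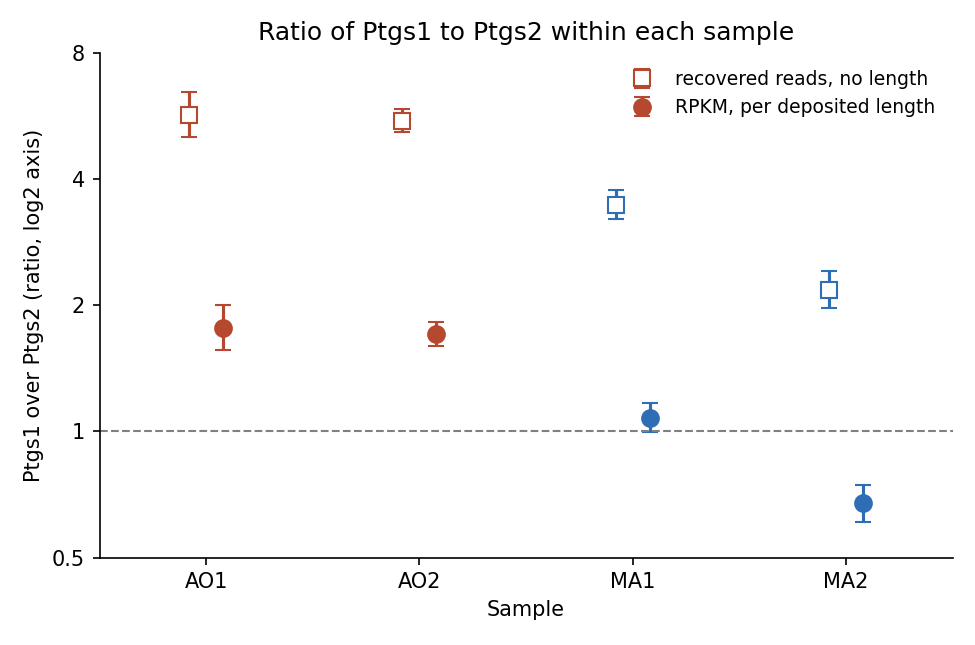
Ratio of Ptgs1 to Ptgs2 within each sample on a log2 axis, per deposited length (filled circles) and in recovered reads with no length (open squares), with 95% Wilson intervals and a dashed line at a ratio of 1, AO in red and MA in blue. Both scales show the aortas together (1.77 and 1.71 per length) and the mesenteric samples lower (1.08 and 0.675), and the line at 1 is crossed on the scale per length alone.

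Likeness of pattern was measured as the Euclidean distance between profiles of log2(scaled RPKM + 0.5) over the 4 samples, each profile centred on its own mean, among 7202 other genes tested. With 4 samples it is a description, and the files do not pair the identifiers with symbols. Nearest to Ptgs1 were ENSRNOG00000041792 at a distance of 0.18 and ENSRNOG00000018867 at 0.33, against a median distance of 1.48. ENSRNOG00000041792 had 1.40 (AO1) and 4.20 (AO2) RPKM in aorta and 1.98 (MA1) and 1.14 (MA2) RPKM in MA. Nearest to Ptgs2 were ENSRNOG00000012464 at 0.15 and ENSRNOG00000017560 at 0.19, against a median of 1.05. ENSRNOG00000012464 had 0.621 (AO1) and 1.96 (AO2) RPKM in aorta and 1.73 (MA1) and 1.08 (MA2) RPKM in MA. All 4 of these genes had their highest value in AO2, which follows from their choice by likeness to the members. Their distances below the median follow from the same choice. The distance between Ptgs1 and Ptgs2 was 0.76, which made Ptgs2 number 38 in likeness to Ptgs1 and Ptgs1 number 579 in likeness to Ptgs2.

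The samples are whole arteries, so fewer cells of a type and less mRNA per cell cannot be told apart. Prostanoid synthases and receptors and the markers of endothelium, smooth muscle, fat, leukocytes and platelets were not analysed here, because the identifiers of the deposited values are not paired with symbols. The study prints RPKM by symbol for a few such genes, among them Acta2 and Ucp1, and these values were not used here. The labelled tissues were therefore not checked against such markers.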

How the data were processed

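RNA-Seq was done on 2 AO and 2 MA samples. By the study's methods, the authors mapped paired-end reads to the Ensembl rat genome by TopHat, left out reads that mapped to over 2 places, and took each gene's reads relative to its mRNA length, as the methods put it, and to the library. The deposited values are RPKM, without a header. Since 1 read is worth a fixed step of RPKM, library sizes, gene lengths and whole reads could be solved (numpy 2.4.6, numba 0.67.0, Python 3.11.15), taking the smallest length that gave whole reads in all samples.

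Median-of-ratios factors scaled the RPKM, and log2(scaled RPKM + 0.5) of the genes that reached 1 RPKM in 2 or more samples was tested with limma 3.58.1 (R 4.3.3, lmFit, eBayes with a trend, Benjamini-Hochberg adjustment). The read recovery and the fit were both tested on simulated data with known answers. The simulation of the fit gave every gene the same spread beyond counting error, and its outcome is not reported here. Ratios were compared by an exact permutation test, and intervals were Poisson or Wilson at 95% (scipy 1.17.1). The 2 samples of a tissue are from different rats, and their number limits the precision. AO1 and MA1 share a rat, but the limma fit as reported and the permutation test treated all 4 samples as independent.

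The members, motifs and lists were chosen with earlier results of these data known. The named genes are the members and the 2 genes nearest to each in profile. A further alternative, limma-voom with at least 10 reads, was chosen after seeing the data. A coding-length ratio was planned and not run, since no protein lengths were used here.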

Additional observations from a re-analysis of the deposited data

How the results depend on the processing

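The call of neither gene changed under any setting. Across the 11 alternatives that kept all 4 samples, the log2 difference of MA from AO ran from -1.30 to -0.60 for Ptgs1 and from -0.30 to 0.082 for Ptgs2, the last with no scaling. Without each sample in turn the ranges were -1.62 to -0.26 and -0.84 to 0.37, with Ptgs2 reversed without AO2. The lowest adjusted p from limma under any setting was 0.185 for Ptgs1 and 0.229 for Ptgs2.

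With a replicate block from the sample numbers, the differences stayed at -0.94 for Ptgs1 (adjusted p = 0.397) and -0.24 for Ptgs2 (adjusted p = 0.804), the difference in ratio stayed at -1.03, and 563 genes were called. Across genes, the AO1 to AO2 and the MA1 to MA2 differences had a correlation of 0.018, and AO2 and MA2 are from different rats, so the numbers were not taken as pairs.

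The 555 genes called fell to 368 with a filter of 0.1 RPKM and to 0 with no filter in limma (3434 at an unadjusted p up to 0.05), and 383 were called by limma-voom with at least 10 reads over the samples. Without each sample in turn 0 to 216 were called, with 1 sample less in each fit. The 0 was without MA2, where 1460 had an unadjusted p of at most 0.05. With no scaling, 170 genes were higher in MA and 260 in AO, and with the block 107 and 456. The cause of the other changes was not tested.

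With 0.5 added to both RPKM, the ratio difference was -0.68, and the log2 ratio was 0.46 in AO1 and 0.64 in AO2. In reads with no length, the log2 ratio was 2.51 (AO1), 2.46 (AO2), 1.80 (MA1) and 1.12 (MA2), the last reversed from -0.57, since the length ratio is left out. Without each sample in turn, the ratio difference ran from -1.37 to -0.69. The ratio per coding length was not run.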
